A study of Mus musculus with 6 samples.

Results

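Glycolysis and hypoxia-induced genes were followed through the cell types of mouse liver during colorectal cancer metastasis. The 31 genes were taken as a list by symbol, out of 31253 features, and all 31 were found. They run from the glucose transporters Slc2a1 and Slc2a3 through the enzymes of glycolysis (Hk1, Hk2, Hk3, Gpi1, Pfkl, Pfkm, Pfkp, Aldoa, Aldoc, Tpi1, Gapdh, Pgk1, Pgam1, Eno1, Pkm) to the lactate enzyme Ldha and the lactate exporter Slc16a3. The others are the regulators Pfkfb3 and Pdk1, the oxygen sensors Egln1 and Egln3, the transcription factor subunit Hif1a and its known targets P4ha1, Bnip3, Bnip3l, Hilpda, Ndrg1, Adm and Ankrd37. Aldoa has a second identifier in the feature list, which held 0 UMIs in the classes used here.

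Single-cell RNA libraries came from 3 groups of whole livers with 2 libraries each: controls (genotype given as ctrl), pre-metastatic niches and macro-metastatic niches, both of these from orthotopic mouse models of colorectal cancer. The labels give CT26-GFP, a mouse colon carcinoma line that carries green fluorescent protein, as the cell line of all 6 libraries, controls included, and give neither strain, age nor time after implantation. Livers were digested with collagenase, red cells were lysed and dead cells removed, and the BD Rhapsody system captured the RNA, with a unique molecular identifier (UMI) on each molecule. The labels do not say whether replicates came from separate animals. P-values thus measure the spread between these libraries, which may be technical. Digestion exposes cells to handling before lysis, and its part in these genes was not tested.

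The libraries held 44976402 and 41914149 UMIs (controls), 48764379 and 51750676 (pre-metastatic livers) and 88986627 and 90819751 (macro-metastatic livers), with a median of 2412 to 4234 UMIs per barcode, highest in the macro-metastatic libraries. Of 69466 distinct barcode sequences, 2404 occurred in more than 1 library. Cells were clustered without the genes described here, and clusters were named by marker genes. A name such as Kupffer cell therefore means a Kupffer-like cluster. UMIs were summed over the cells of a class in each library, and 12 classes with at least 20 cells in every library were compared. Levels are CPM, UMI counts scaled to the same total of UMIs in each class and library. They are not corrected for gene length, since the assay reads the 3′ end of a transcript.

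Cells break glucose down to pyruvate in glycolysis, and Ldha turns pyruvate into lactate when oxygen is short or flux is high. Hypoxia-inducible factor 1 (HIF-1), whose alpha subunit is Hif1a, drives many of these genes. With oxygen present, the prolyl hydroxylases Egln1 and Egln3 mark the subunit for destruction, so Hif1a activity is set largely at the protein level, which RNA counts do not show. In the liver, oxygen falls along the sinusoid from the portal to the central vein, and activated macrophages and neutrophils are known for strong glycolysis.

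The core letters of the HIF binding site are ACGTG. To show where they stand, 250 bases upstream of the annotated start are given for 6 genes whose changes are described below (RefSeq, build GRCm38.p6, 5′ to 3′ on the gene's strand). Capitals mark ACGTG or its reverse complement CACGT. The windows are chr7:46845554-46845803 for Ldha, chr6:29272376-29272625 for Hilpda, chr12:73907617-73907866 for Hif1a, all on the + strand, and chr6:82774455-82774704 for Hk2, chr8:45999851-46000100 for Ankrd37 and chr7:138909507-138909756 for Bnip3, all on the - strand.
Ldha: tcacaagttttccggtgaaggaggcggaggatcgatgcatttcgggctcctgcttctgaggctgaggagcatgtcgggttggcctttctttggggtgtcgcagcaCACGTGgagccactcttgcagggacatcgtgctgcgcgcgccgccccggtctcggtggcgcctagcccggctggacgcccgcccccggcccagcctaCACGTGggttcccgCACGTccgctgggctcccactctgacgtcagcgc
Hilpda: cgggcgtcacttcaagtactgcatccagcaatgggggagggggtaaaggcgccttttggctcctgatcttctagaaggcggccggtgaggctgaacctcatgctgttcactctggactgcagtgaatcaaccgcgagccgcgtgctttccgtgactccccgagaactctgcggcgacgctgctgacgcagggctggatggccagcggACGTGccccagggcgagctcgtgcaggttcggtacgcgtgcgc
Hif1a: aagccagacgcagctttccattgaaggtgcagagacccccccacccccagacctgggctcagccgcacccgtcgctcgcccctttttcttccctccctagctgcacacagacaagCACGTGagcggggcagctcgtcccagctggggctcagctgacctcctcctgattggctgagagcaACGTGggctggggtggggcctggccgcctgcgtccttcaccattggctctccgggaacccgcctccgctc
Hk2: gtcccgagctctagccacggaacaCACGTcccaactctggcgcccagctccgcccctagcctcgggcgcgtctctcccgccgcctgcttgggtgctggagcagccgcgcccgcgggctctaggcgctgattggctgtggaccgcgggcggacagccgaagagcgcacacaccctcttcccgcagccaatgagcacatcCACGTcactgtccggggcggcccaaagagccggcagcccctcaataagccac
Ankrd37: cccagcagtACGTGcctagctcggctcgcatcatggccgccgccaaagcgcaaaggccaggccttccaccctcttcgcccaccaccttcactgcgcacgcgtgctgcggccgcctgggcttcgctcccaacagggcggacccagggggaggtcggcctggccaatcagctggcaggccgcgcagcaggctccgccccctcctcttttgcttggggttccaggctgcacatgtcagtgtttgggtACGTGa
Bnip3: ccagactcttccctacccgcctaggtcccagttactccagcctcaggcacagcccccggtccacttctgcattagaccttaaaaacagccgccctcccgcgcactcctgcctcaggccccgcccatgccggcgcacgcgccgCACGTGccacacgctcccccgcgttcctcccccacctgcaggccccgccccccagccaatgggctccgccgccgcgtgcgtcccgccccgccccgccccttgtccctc

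Ldha had 5 matches, Hif1a 3, Hk2, Ankrd37 and Bnip3 2 each and the second annotated start of Hilpda 1, where CACGTG, which holds both words, counts as 2. Gapdh, Gpi1, Pfkl, Pfkp, Tpi1, Eno1, Hk1, Aldoc, Pdk1 and Adm had none in this stretch, at any of their annotated starts. Over windows of 300 bases (250 before and 50 after the start), 21 of the 28 genes found in the table held the letters on either strand in at least 1 window, against 21.8% of 27025 genes. A match of 5 letters describes the sequence and is no evidence of binding.

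The 31 genes together took a larger share of RNA in macro-metastatic livers in every class compared. In Kupffer cells, which are liver macrophages, their summed level was 2151 and 2088 CPM in controls, 2339.9 and 2359.7 for the pre-metastatic pair and 5265 and 5268 for the macro-metastatic pair. In neutrophils it was 2971 and 2653 CPM in controls, 3618 and 3036 for the pre-metastatic pair and 6659.8 and 6142 for the macro-metastatic pair. In mast cells and basophils it was 2559.6 and 2642 CPM in controls, 3063 and 2467 for the pre-metastatic pair and 7089 and 7534 for the macro-metastatic pair. B cells moved less, at 1807 and 1666 CPM in controls, 1590.4 and 1687 for the pre-metastatic pair and 2381 and 2633 for the macro-metastatic pair, and plasma cells were lowest, at 1542 and 1428 CPM in controls, 1231 and 1262 for the pre-metastatic pair and 2312 and 2212 for the macro-metastatic pair. In all 12 classes both macro-metastatic libraries lay above all 4 other libraries.

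**Figure D1:**
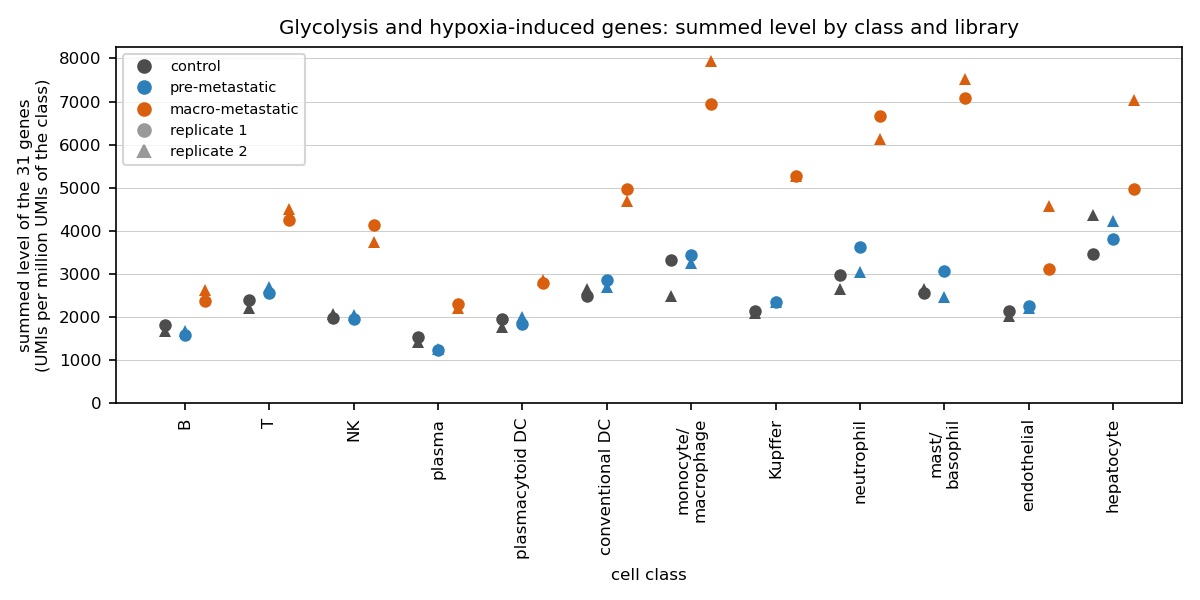
Summed level of the 31 genes (y axis, CPM) in each of 12 cell classes (x axis) and 6 libraries; colours are groups, a circle is replicate 1 and a triangle replicate 2. The macro-metastatic libraries lie highest in every class, from 2212 CPM in plasma cells to 7930 CPM in monocytes and macrophages.

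Within classes, 132 of 311 gene-by-class tests were higher in macro-metastatic than in control livers and 5 were lower (edgeR's quasi-likelihood test, Benjamini-Hochberg adjusted p under 0.05). Over all genes tested in the same classes, 10.8% were called higher and 6.69% lower. At least 1 class showed a rise for 23 of the 31 genes. Hilpda, a lipid droplet protein, and Pkm, pyruvate kinase, rose in all 12 classes. Gapdh rose in 11 of 12, Gpi1 and Aldoa in 11 of 12, Slc2a1, Eno1 in 9 of 11, Hk2 in 9 of 10 and Ldha in 7 of 12. Bnip3l, Egln1, Pgam1, Slc2a3, Pfkm and Aldoc passed in no class in either direction. Without control replicate 1 the count of called tests was 86, against 137 with all libraries.

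The 5 falls were in single genes. Pdk1, a kinase that inhibits pyruvate dehydrogenase, fell in T cells from 21.2 and 19.97 to 6.41 and 11.4 CPM (log2 fold change -1.11, SE 0.32, adjusted p = 0.0295) and in hepatocytes from 51.4 and 78.9 to 0 and 28.8 CPM (log2 fold change -1.68, SE 0.49, adjusted p = 0.0416). P4ha1, a collagen prolyl hydroxylase subunit, fell in NK cells from 164 and 135 to 76.8 and 61.1 CPM (log2 fold change -0.97, SE 0.29, adjusted p = 0.0359). Both are known HIF targets. Adm, the peptide adrenomedullin, fell in mast cells and basophils from 54.3 and 30.8 to 0 and 5.45 CPM (log2 fold change -3.05, SE 0.85, adjusted p = 0.0218), and Egln3 fell in Kupffer cells from 3.13 and 2.39 to 1.04 and 0.967 CPM (log2 fold change -1.26, SE 0.42, adjusted p = 0.0467). Egln3 went the other way in mast cells and basophils, from 3.62 and 30.8 to 90.99 and 70.8 CPM (log2 fold change 2.95, SE 0.65, adjusted p = 0.00677). The sum of 12 endothelial markers fell in both of these classes as well. It went from 14445 and 10318 to 716 and 640.3 CPM in mast cells and basophils. In Kupffer cells it went from 8411 and 8011 to 1828.5 and 1630 CPM. The part of this in the Adm and Egln3 changes was not tested.

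B cells shared part of the rise, and their change was subtracted from that of each other class in 1 model over both. In B cells 8 of 26 tested genes rose, against 11.0% of all genes tested there: Gapdh, Hilpda, Slc2a1, Eno1, Gpi1, Pkm, Hk2 and Aldoa. By edgeR 0 fell, with 9 higher and 1 lower at an unadjusted p under 0.05, and DESeq2 called 7 genes in all. For the unadjusted and DESeq2 counts the shares of all genes are not given here. Gapdh, the central dehydrogenase of glycolysis, was at 116 and 101 CPM in controls, 42.2 and 85.7 for the pre-metastatic pair and 397 and 496 for the macro-metastatic pair (log2 fold change 2.11, SE 0.22, adjusted p = 3.25e-06). Slc2a1, the glucose transporter GLUT1, was at 17.2 and 21.3 CPM in controls, 23.97 and 34.5 for the pre-metastatic pair and 80.8 and 78.00 for the macro-metastatic pair (log2 fold change 2.09, SE 0.26, adjusted p = 2.41e-05). Hif1a in B cells was at 130.1 and 128 CPM in controls, 119 and 144 for the pre-metastatic pair and 113 and 122 for the macro-metastatic pair, and its libraries did not separate by group.

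Relative to B cells, 44 of 307 tests were higher in macro-metastatic than in control livers and 0 were lower, against 2.52% higher and 1.44% lower over all genes tested. At an unadjusted p under 0.05, 106 were higher and 12 lower, and DESeq2 called 19 in all, none lower. Shares of all genes under these other rules are not given here, so these counts are not set against other genes. The 44 calls fell on 15 genes: 16 had none. Kupffer cells and hepatocytes had 8 each, T cells and neutrophils 6, endothelial cells and mast cells and basophils 4, conventional dendritic cells and monocytes and macrophages 3, and NK cells 2. In the same classes, 4.52%, 5.20%, 3.07%, 2.38%, 4.01%, 3.92%, 0.714%, 0.371% and 1.05% of all genes tested were called higher, in that order. Plasmacytoid dendritic cells and plasma cells had none, where only 0.205% and 0.588% of all genes tested were called higher. The controls limit these calls: without control replicate 1, 14 tests were called and 13 of the 44 stayed called, and without control replicate 2, 22 were called and 18 stayed. With T cells in place of B cells as the reference, 19 tests were higher and 13 lower. Of the 44 calls, 17 stayed called under that reference and 4 changed sign. The share of all genes called under it is not given here, so these counts are not set against other genes.

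**Figure D2:**
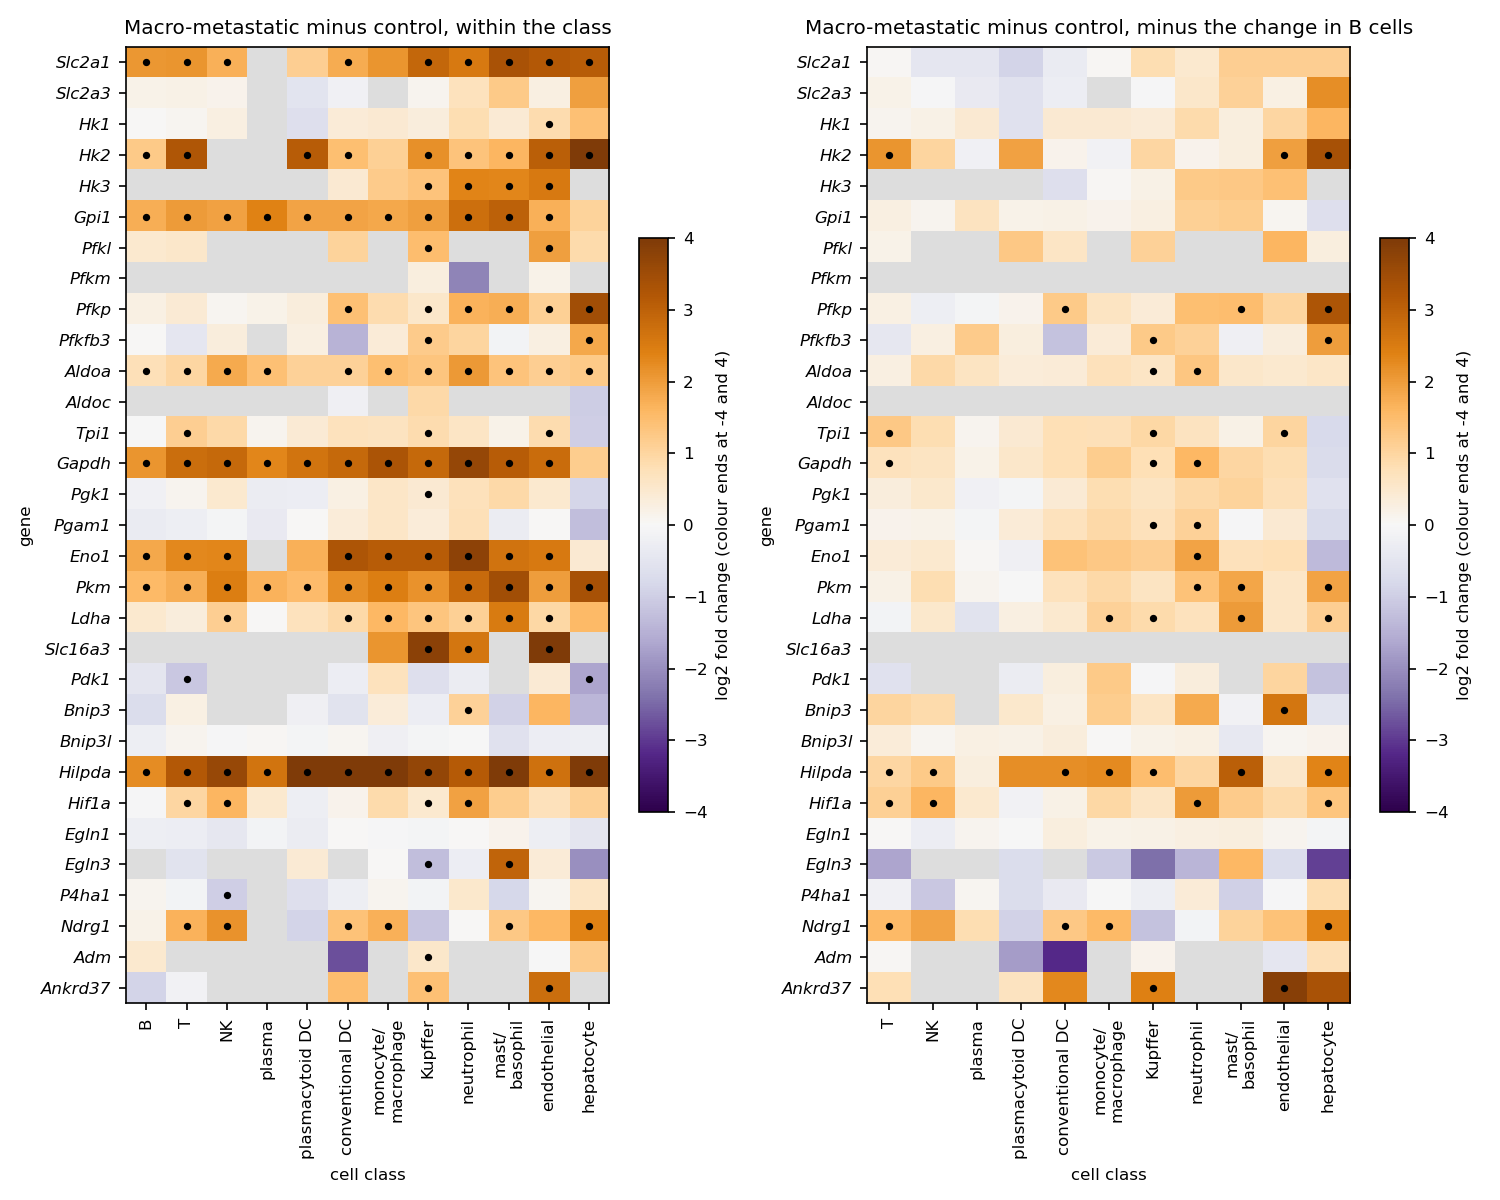
Log2 fold change of macro-metastatic over control livers for each of the 31 genes (rows) in each cell class (columns), within the class (left) and after subtracting the change in B cells (right). Black dots mark calls (132 higher and 5 lower on the left, 44 higher on the right, save those in grey cells); grey cells were not tested or rest on 3 or fewer UMIs in the class or in B cells in either group.

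Hilpda, which blocks fat breakdown at lipid droplets and is induced by HIF, gave the most calls relative to B cells, in 7 of 11 classes. In mast cells and basophils it stood at 127 and 87.2 CPM in controls, 338 and 275 for the pre-metastatic pair and 2461 and 3221 for the macro-metastatic pair (log2 fold change 3.03, SE 0.43, adjusted p = 4.56e-05). The RNA of this class changed in make-up as well: 12 endothelial markers summed to 14445 and 10318 CPM in controls and 716 and 640.3 CPM in macro-metastatic livers, and 8 mast cell markers to 3063 and 4951 CPM and 11176 and 7668 CPM. Over all libraries, 309 of its cells carried mast cell markers foremost and 116 endothelial ones when gated one by one. The part of this in the mast cell and basophil values was not tested, and the gated cells were too few to fit. In Kupffer cells it was at 153 and 137 CPM in controls, 315 and 386 for the pre-metastatic pair and 1714 and 1509 for the macro-metastatic pair, so that the pre-metastatic libraries lay between the other groups and no group overlapped another (log2 fold change 1.49, SE 0.19, adjusted p = 0.000135). In monocytes and macrophages it was at 62.3 and 54.6 CPM in controls, 75.8 and 168 for the pre-metastatic pair and 1301 and 1059 for the macro-metastatic pair (log2 fold change 2.26, SE 0.34, adjusted p = 0.00610). These 3 classes held the highest Hilpda levels of macro-metastatic livers, and replicates of neighbouring classes in that order did not overlap among them. In monocytes and macrophages, 10 Kupffer markers summed to 1407 and 2653 CPM in controls and 3822 and 3762 CPM in macro-metastatic livers. There 12 neutrophil markers summed to 329 and 325 CPM and to 2744 and 2286 CPM. Gated one by one, 2987 cells of this class carried monocyte and macrophage markers foremost and 851 Kupffer ones. The part of this in its Hilpda, Ndrg1 and Ldha calls was not tested.

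Conventional dendritic cells started lower and had Hilpda at 27.1 and 24.7 CPM in controls, 55.1 and 92.7 for the pre-metastatic pair and 708 and 335 for the macro-metastatic pair (log2 fold change 2.20, SE 0.31, adjusted p = 0.00520). Most of this sat in 1 of their 2 clusters: in cluster 16, led by Cd209a and Ccr7, it was 41.3 and 33.2 CPM in controls, 139.5 and 180.4 for the pre-metastatic pair and 1562 and 844 for the macro-metastatic pair, and in cluster 9, led by Xcr1 and Clec9a, it was 15.6 and 21.9 CPM in controls, 10.1 and 31.5 for the pre-metastatic pair and 139 and 150.0 for the macro-metastatic pair. The rise was thus present in both and the level several times higher in cluster 16. In hepatocytes it was at 7.98 and 11.6 CPM in controls, 9.47 and 25.9 for the pre-metastatic pair and 579.9 and 157 for the macro-metastatic pair (log2 fold change 2.35, SE 0.40, adjusted p = 6.17e-07), with 30 and 71 UMIs behind the macro-metastatic values. T cells had 55.4 and 32.05 CPM in controls, 52.6 and 97.2 for the pre-metastatic pair and 478 and 326 for the macro-metastatic pair (log2 fold change 1.00, SE 0.23, adjusted p = 0.00878). NK cells had 36.6 and 66.7 CPM in controls, 39.5 and 85.1 for the pre-metastatic pair and 737 and 433 for the macro-metastatic pair (log2 fold change 1.24, SE 0.33, adjusted p = 0.0266). In all 3 classes the macro-metastatic libraries lay above every control library. The calls in mast cells and basophils and in conventional dendritic cells were kept under every alternative that could be run for them.

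**Figure D3:**
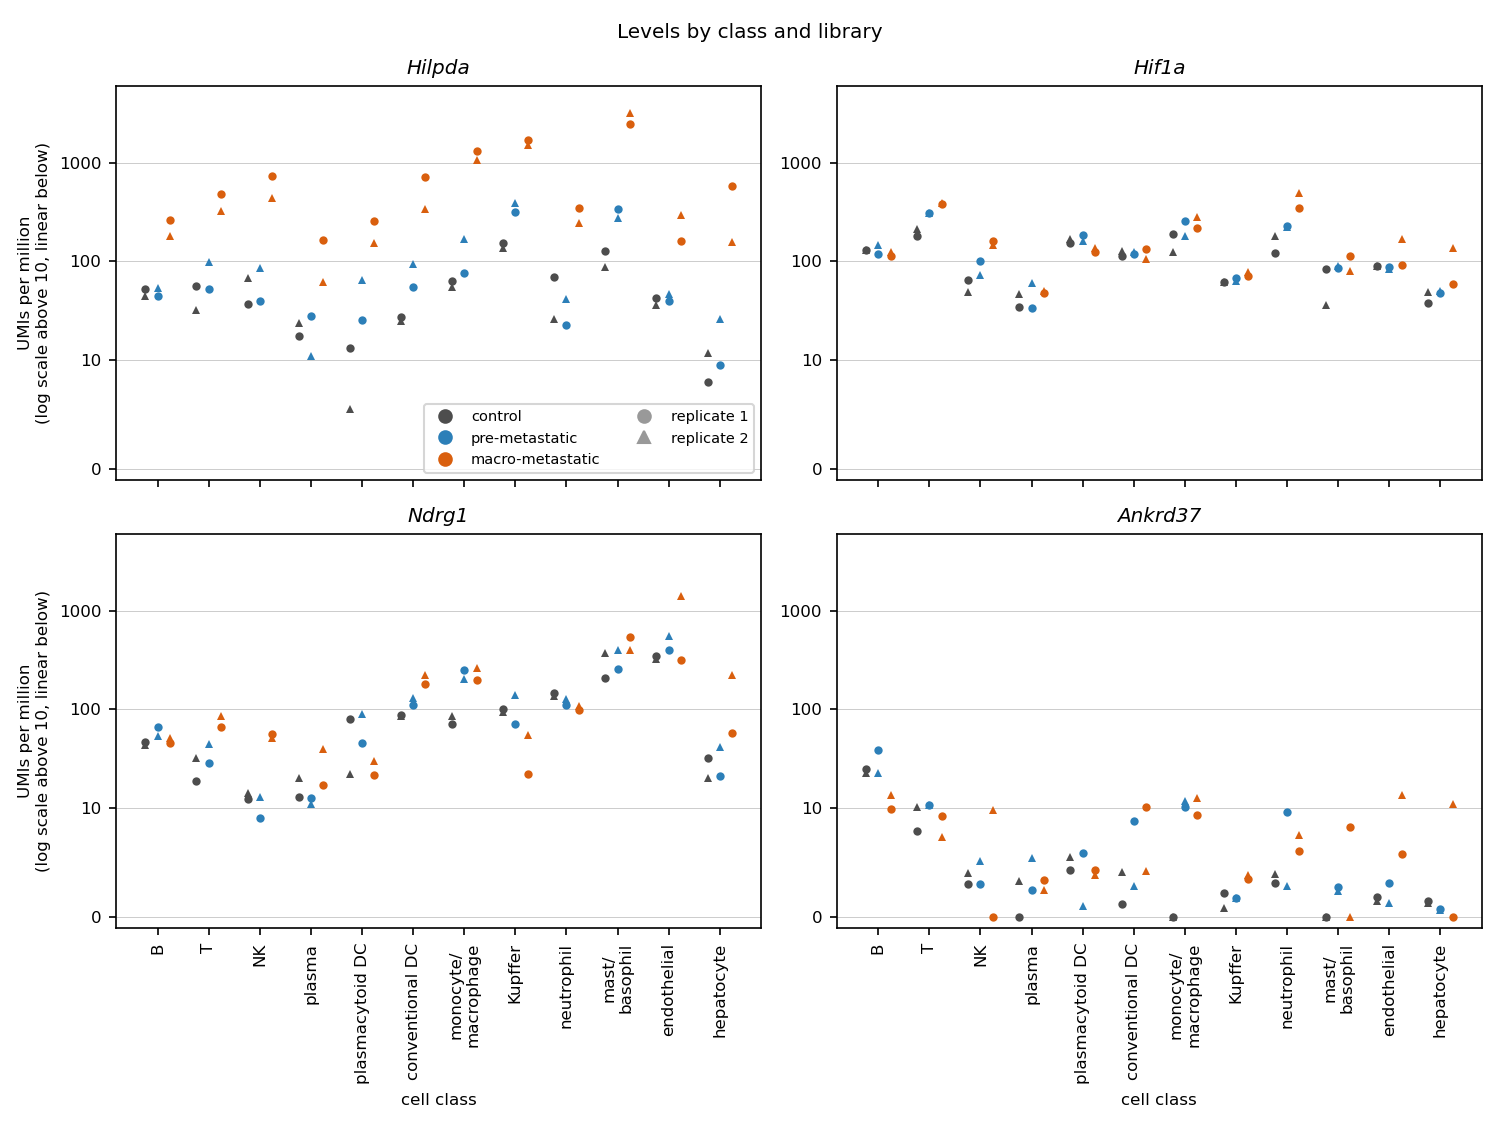
Levels of Hilpda, Hif1a, Ndrg1 and Ankrd37 (y axis, CPM, log scale above 10 and linear below) by cell class (x axis) and library; colours are groups, circles replicate 1 and triangles replicate 2. Hilpda is high in both macro-metastatic libraries of every class, Hif1a is higher in both macro-metastatic than in both control libraries of T cells, NK cells and neutrophils, and Ndrg1 in endothelial cells is high in macro-metastatic replicate 2 only.

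Hif1a transcripts rose relative to B cells in T cells, NK cells, neutrophils and hepatocytes. In T cells Hif1a was at 179.7 and 212 CPM in controls, 311 and 305 for the pre-metastatic pair and 384 and 391 for the macro-metastatic pair, with no overlap between the groups (log2 fold change 1.10, SE 0.19, adjusted p = 0.000484). This call was kept under every alternative run. In the T cell class 9 NK markers summed to 462 and 383 CPM in controls and 2785 and 1233 CPM in macro-metastatic livers, and the part of this was not tested. In neutrophils it was at 120.2 and 179.7 CPM in controls, 226 and 223 for the pre-metastatic pair and 346 and 489 for the macro-metastatic pair (log2 fold change 2.02, SE 0.33, adjusted p = 0.000265) and in NK cells at 63.97 and 48.5 CPM in controls, 100.3 and 72.2 for the pre-metastatic pair and 159 and 144 for the macro-metastatic pair (log2 fold change 1.60, SE 0.34, adjusted p = 0.00256). NK cells rest on 46 cells in macro-metastatic replicate 1. Their 9 NK markers summed to 18535 and 17066 CPM in controls and 11571 and 12671 CPM in macro-metastatic livers, and 9 T cell markers to 822 and 795 CPM and 1049.5 and 981 CPM, and the part of this was not tested. The T-cell class was not uniform: in cluster 2, led by Lef1 and Tcf7, Hif1a was 159.7 and 203 CPM in controls, 266 and 272 for the pre-metastatic pair and 485 and 462 for the macro-metastatic pair, while in cluster 3, led by Ctla4 and Foxp3, it was 581 and 403 CPM in controls, 531 and 548 for the pre-metastatic pair and 651 and 646 for the macro-metastatic pair. The regulatory-marker cluster thus had the higher Hif1a level in control livers and the smaller difference. In hepatocytes Hif1a was called as well (log2 fold change 1.32, SE 0.39, adjusted p = 0.0169), with 3 UMIs in macro-metastatic replicate 1, and without macro-metastatic replicate 2 the difference was -0.64. DESeq2 and the fit without the filter on low counts did not call it. Kupffer cells rose within the class (log2 fold change 0.49, SE 0.12, adjusted p = 0.0135) but were not called relative to B cells (log2 fold change 0.60, SE 0.20, adjusted p = 0.0735). Conventional and plasmacytoid dendritic cells had Hif1a at 113 and 128 and 153 and 169 CPM in control and 132 and 104 and 125 and 135 CPM in macro-metastatic livers. Neither passed within its class (log2 fold change 0.13, SE 0.18, adjusted p = 0.661 in the former; log2 fold change -0.24, SE 0.21, adjusted p = 0.530 in the latter). The oxygen sensor Egln1 did not pass in any class between macro-metastatic and control livers, with log2 differences relative to B cells between -0.27 and 0.30.

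The remaining classes had Hif1a as follows. Endothelial cells had 88.7 and 88.7 CPM in controls, 87.6 and 84.1 for the pre-metastatic pair and 91.2 and 167 for the macro-metastatic pair. Mast cells and basophils had 83.3 and 35.9 CPM in controls, 85.9 and 90.1 for the pre-metastatic pair and 112 and 79.02 for the macro-metastatic pair. Monocytes and macrophages had 187 and 125 CPM in controls, 257 and 179 for the pre-metastatic pair and 219 and 283 for the macro-metastatic pair. In endothelial cells the macro-metastatic libraries lay above all others, and in mast cells and basophils they overlapped the controls. Plasma cells had 34.6 and 46.8 CPM in controls, 33.1 and 60.1 for the pre-metastatic pair and 47.95 and 49.3 for the macro-metastatic pair. None of these 4 was called.

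Ndrg1, a stress protein strongly induced by hypoxia, was called in 4 classes. T cells held it at 18.6 and 32.05 CPM in controls, 28.6 and 44.6 for the pre-metastatic pair and 65.5 and 86.2 for the macro-metastatic pair (log2 fold change 1.55, SE 0.32, adjusted p = 0.00402). Conventional dendritic cells had 88.5 and 86.5 CPM in controls, 112 and 129 for the pre-metastatic pair and 181 and 225 for the macro-metastatic pair (log2 fold change 1.28, SE 0.28, adjusted p = 0.0451; with T cells as reference -0.28). Monocytes and macrophages had 71.2 and 85.8 CPM in controls, 251 and 203 for the pre-metastatic pair and 198 and 262 for the macro-metastatic pair (log2 fold change 1.54, SE 0.30, adjusted p = 0.0303). In this last class the pre-metastatic and macro-metastatic libraries overlapped, and both lay above the controls. Hepatocytes had 31.9 and 20.3 CPM in controls, 21.2 and 41.96 for the pre-metastatic pair and 57.99 and 221 for the macro-metastatic pair (log2 fold change 2.37, SE 0.43, adjusted p = 3.37e-06), where 3 UMIs stand behind macro-metastatic replicate 1 and the difference without replicate 2 of that group was -0.12.

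Endothelial cells split between their macro-metastatic libraries. Ndrg1 was at 348 and 329 CPM in controls, 399 and 552 for the pre-metastatic pair and 315 and 1430.0 for the macro-metastatic pair, and the mitophagy receptor Bnip3 was at 40.3 and 40.3 CPM in controls, 52.2 and 63.2 for the pre-metastatic pair and 37.3 and 176 for the macro-metastatic pair (log2 fold change 2.61, SE 0.36, adjusted p = 0.000539 for Bnip3). Only macro-metastatic replicate 2 was high, and without it the Bnip3 call was lost. The clusters differed too: cluster 19 held 93.8% of the endothelial cells of macro-metastatic replicate 2 and 8.5% of those of replicate 1, which had 73.5% in cluster 11, and controls had most in cluster 7. Within cluster 11 Ndrg1 was 322 and 1152 CPM in the macro-metastatic replicates, and within cluster 19 it was 299.9 and 1448 CPM. The part of the clusters in the gap between replicates was not tested. Ankrd37, an ankyrin repeat protein known as a HIF target, stood at 1.83 and 1.48 CPM in controls, 3.10 and 1.28 for the pre-metastatic pair and 5.81 and 13.7 for the macro-metastatic pair (log2 fold change 3.85, SE 0.50, adjusted p = 0.000316), a call kept under every alternative run, and at 2.22 and 0.854 CPM in controls, 1.77 and 1.77 for the pre-metastatic pair and 3.47 and 3.90 for the macro-metastatic pair in Kupffer cells (log2 fold change 2.43, SE 0.59, adjusted p = 0.0164). Part of its size comes from B cells, where Ankrd37 was 24.98 and 22.7 CPM in controls, 38.3 and 22.4 for the pre-metastatic pair and 9.93 and 13.6 for the macro-metastatic pair. Monocytes and macrophages had 0 Ankrd37 UMIs in control and 270 in macro-metastatic libraries, at least 2.07-fold higher with the controls set at 3 counts in all.

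**Figure D4:**
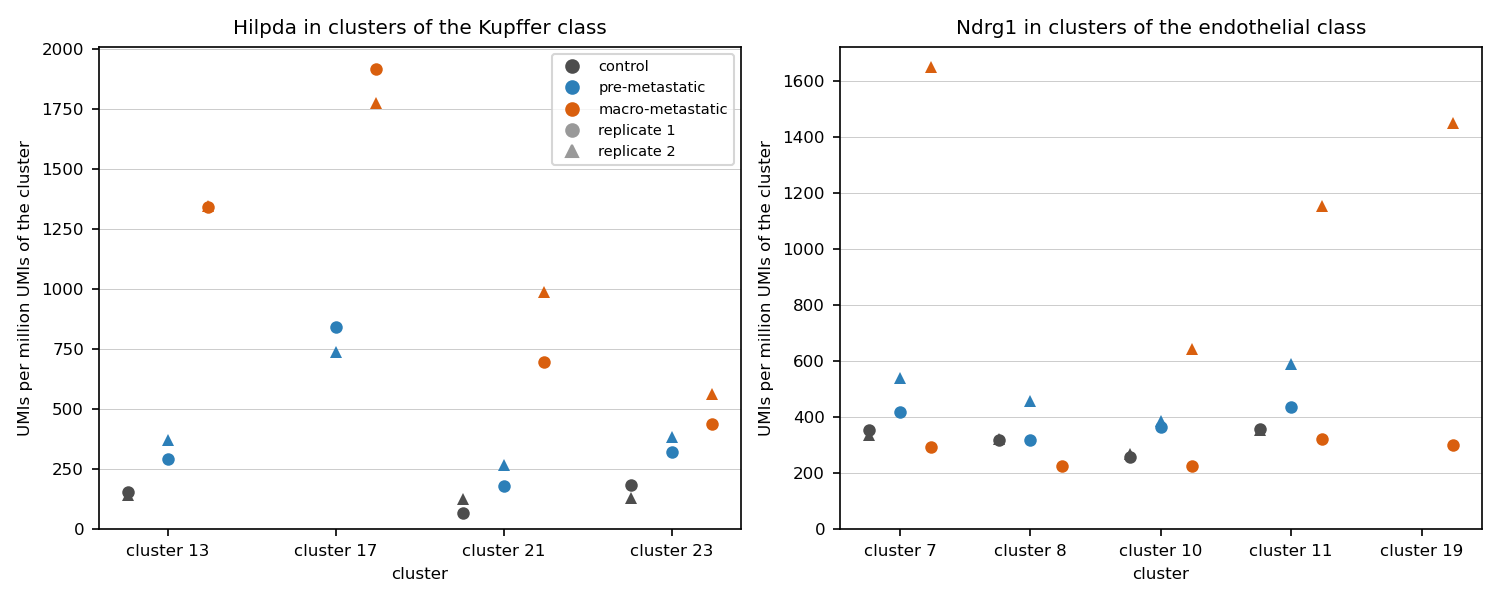
Levels of Hilpda in the clusters of the Kupffer class (left) and of Ndrg1 in the clusters of the endothelial class (right), in CPM of the cluster (y axis) by cluster (x axis) and library; colours are groups, circles replicate 1, triangles replicate 2, and libraries with fewer than 20 cells are left out. Hilpda is highest in cluster 17, and Ndrg1 is high in macro-metastatic replicate 2 in every endothelial cluster shown for it.

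Kupffer cells changed clusters between groups as well. Cluster 17, led by Clec4f and Ccl7, held 79.7% and 69.9% of them in macro-metastatic livers and 0.149% and 0.971% in controls, which had most in cluster 13. Within cluster 13 Hilpda was 154 and 140.3 CPM in controls, 291 and 373 for the pre-metastatic pair and 1342 and 1345 for the macro-metastatic pair, and within cluster 23, led by Slc40a1 and Kcna2, it was 183 and 129 CPM in controls, 323 and 383 for the pre-metastatic pair and 436 and 565 for the macro-metastatic pair. In clusters 13 and 23 both macro-metastatic libraries lay above both controls. The level was highest in cluster 17, at 843 and 737 CPM for the pre-metastatic pair and 1916 and 1775 for the macro-metastatic pair. Cluster 17 held 1 and 6 control cells, too few for a control level, and 24 and 55 pre-metastatic cells. The part of the change of clusters in the Hilpda difference was not tested. Without cluster 13, whose second-ranked markers are endothelial, 5 members were called in Kupffer cells instead of 8. Over the whole class, 12 endothelial markers summed to 8411 and 8011 CPM in controls and 1828.5 and 1630 CPM in macro-metastatic livers. Beyond leaving out that cluster, the part of this in the 8 calls was not tested.

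At the entry of glycolysis, Slc2a1 rose within 9 of 11 classes and was called relative to B cells in none, with relative log2 differences between -0.88 and 1.15. In neutrophils Slc2a1 was at 31.6 and 31.9 CPM in controls, 55.5 and 51.2 for the pre-metastatic pair and 126 and 145 for the macro-metastatic pair and in Kupffer cells at 4.17 and 4.61 CPM in controls, 6.12 and 5.74 for the pre-metastatic pair and 25.8 and 30.8 for the macro-metastatic pair. Both rose within their class (log2 fold change 2.54, SE 0.29, adjusted p = 0.00158 in neutrophils; log2 fold change 2.90, SE 0.19, adjusted p = 7.24e-05 in Kupffer cells). T cells had 10.7 and 14.4 CPM in controls, 18.9 and 15.9 for the pre-metastatic pair and 50.6 and 55.2 for the macro-metastatic pair. In these 3 classes the macro-metastatic libraries lay above all others. Slc2a3, the transporter GLUT3, passed in no class between macro-metastatic and control livers.

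Slc2a1 was tested in 7 further classes, hepatocytes among them at 1.25 and 2.59 CPM in controls, 2.08 and 2.52 for the pre-metastatic pair and 19.3 and 19.9 for the macro-metastatic pair. NK cells had Slc2a1 at 18.3 and 22.2 CPM in controls, 12.2 and 28.4 for the pre-metastatic pair and 56.3 and 61.1 for the macro-metastatic pair. The values in conventional dendritic cells were 9.84 and 11.3 CPM in controls, 14.1 and 18.3 for the pre-metastatic pair and 36.7 and 28.1 for the macro-metastatic pair. Endothelial cells held 0.915 and 0.888 CPM in controls, 2.69 and 0.734 for the pre-metastatic pair and 5.07 and 9.20 for the macro-metastatic pair. GLUT1 is the basal glucose transporter of many cell types. Mast cells and basophils had Slc2a1 at 3.62 and 25.7 CPM in controls, 19.4 and 4.87 for the pre-metastatic pair and 66.2 and 104 for the macro-metastatic pair. The values in monocytes and macrophages were 40.1 and 10.4 CPM in controls, 36.4 and 27.4 for the pre-metastatic pair and 72.8 and 99.2 for the macro-metastatic pair. Plasmacytoid dendritic cells held 23.1 and 14.7 CPM in controls, 17.7 and 21.5 for the pre-metastatic pair and 38.8 and 42.9 for the macro-metastatic pair. The macro-metastatic libraries were the highest in each.

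Hexokinase 2, which traps glucose in the cell as its phosphate, was called relative to B cells in 3 classes. In T cells Hk2 was at 4.06 and 3.25 CPM in controls, 17.4 and 12.2 for the pre-metastatic pair and 37.04 and 34.8 for the macro-metastatic pair (log2 fold change 2.10, SE 0.50, adjusted p = 0.0115), with the pre-metastatic libraries already above both controls (within T cells, pre-metastatic minus control, log2 fold change 1.95, SE 0.35, adjusted p = 0.0374). Endothelial cells had it at 6.40 and 5.18 CPM in controls, 7.87 and 11.2 for the pre-metastatic pair and 38.7 and 45.4 for the macro-metastatic pair (log2 fold change 1.95, SE 0.40, adjusted p = 0.00956; -0.20 with T cells as reference). Hepatocytes normally use glucokinase and had Hk2 at 2.49 and 3.02 CPM in controls, 4.55 and 7.57 for the pre-metastatic pair and 174 and 50.9 for the macro-metastatic pair (log2 fold change 3.37, SE 0.73, adjusted p = 0.000214), from 9 and 23 UMIs in the macro-metastatic libraries. Kupffer cells, with 63.8 and 68.7 CPM in controls, 118 and 91.3 for the pre-metastatic pair and 252 and 260.1 for the macro-metastatic pair, rose within the class (log2 fold change 2.16, SE 0.15, adjusted p = 9.33e-05) and were not called relative to B cells (log2 fold change 0.97, SE 0.34, adjusted p = 0.0931).

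The phosphofructokinase step sets the flux through the pathway. Pfkp, its platelet-type isoform, was at 112 and 135 CPM in controls, 215 and 176 for the pre-metastatic pair and 281 and 310.2 for the macro-metastatic pair in conventional dendritic cells (log2 fold change 1.24, SE 0.25, adjusted p = 0.0319). It was at 105 and 169 CPM in controls, 161 and 92.6 for the pre-metastatic pair and 281 and 316 for the macro-metastatic pair in mast cells and basophils (log2 fold change 1.49, SE 0.39, adjusted p = 0.0177). It was at 1.75 and 3.02 CPM in controls, 3.03 and 9.46 for the pre-metastatic pair and 96.7 and 19.9 for the macro-metastatic pair in hepatocytes (log2 fold change 3.26, SE 0.73, adjusted p = 0.000450; 5 and 9 macro-metastatic UMIs). Pfkfb3, which makes the activator of phosphofructokinase, was at 45.5 and 46.8 CPM in controls, 38.5 and 45.2 for the pre-metastatic pair and 83.2 and 99.5 for the macro-metastatic pair in Kupffer cells (log2 fold change 1.23, SE 0.29, adjusted p = 0.0144). Its hepatocyte values were 14.96 and 12.5 CPM in controls, 17.05 and 20.2 for the pre-metastatic pair and 116 and 53.1 for the macro-metastatic pair (log2 fold change 1.99, SE 0.54, adjusted p = 0.00686). In each of these the macro-metastatic libraries lay above all others. Pfkl, the liver isoform, had 0 UMIs in control neutrophils and in control monocytes and macrophages, and macro-metastatic levels at least 1.92-fold and 2.12-fold higher with the same setting.

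**Figure D5:**
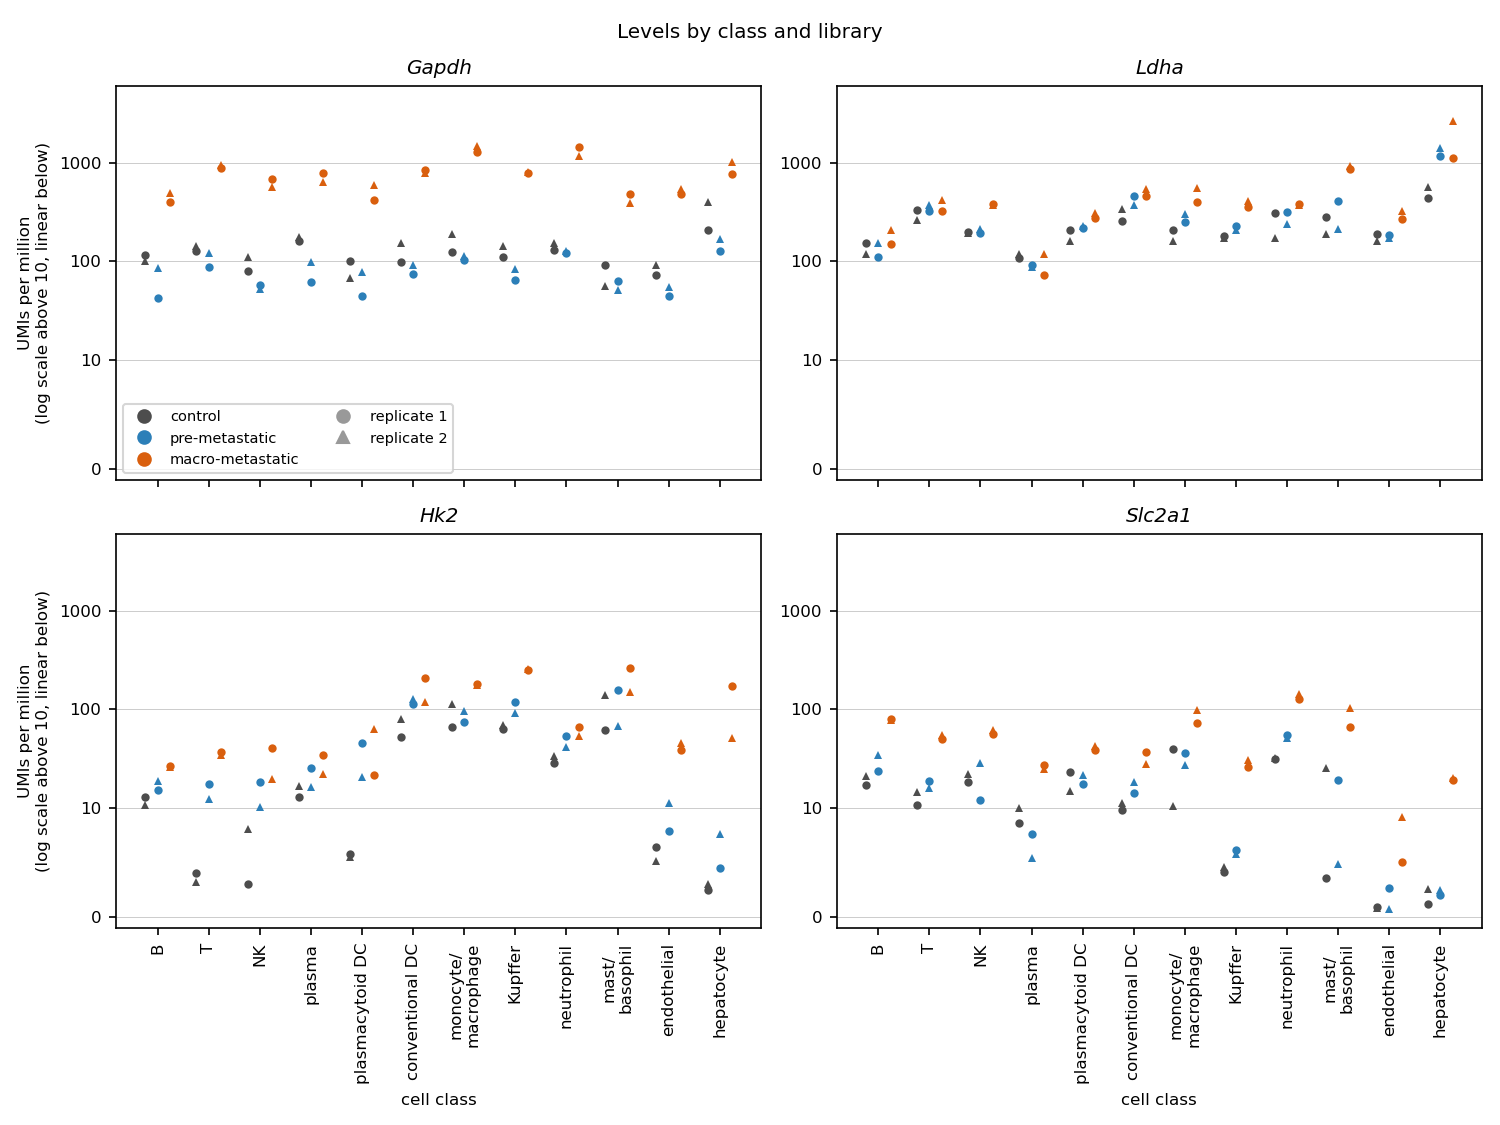
Levels of Gapdh, Ldha, Hk2 and Slc2a1 (y axis, CPM, log scale above 10 and linear below) by cell class (x axis) and library; colours are groups, circles replicate 1, triangles replicate 2. Gapdh is higher in both macro-metastatic libraries of every class, and Ldha is 869 and 932 CPM in the macro-metastatic libraries of mast cells and basophils.

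Of the enzymes of glycolysis, 5 were called in neutrophils relative to B cells. There Gapdh was at 129.7 and 152 CPM in controls, 121 and 126 for the pre-metastatic pair and 1443 and 1168 for the macro-metastatic pair (log2 fold change 1.58, SE 0.34, adjusted p = 0.00390). Pkm was at 75.9 and 142 CPM in controls, 164 and 178 for the pre-metastatic pair and 560.5 and 608 for the macro-metastatic pair (log2 fold change 1.38, SE 0.35, adjusted p = 0.0158). Aldoa, aldolase A, was at 139 and 186 CPM in controls, 226 and 183 for the pre-metastatic pair and 569.8 and 425 for the macro-metastatic pair (log2 fold change 1.31, SE 0.32, adjusted p = 0.0131). In all 3 the macro-metastatic libraries lay above every other library. Enolase 1 was at 18.98 and 15.97 CPM in controls, 47.2 and 27.01 for the pre-metastatic pair and 234 and 114 for the macro-metastatic pair (log2 fold change 1.88, SE 0.54, adjusted p = 0.0435). Pgam1, phosphoglycerate mutase, was at 411 and 266 CPM in controls, 657 and 386 for the pre-metastatic pair and 531 and 306 for the macro-metastatic pair (log2 fold change 1.09, SE 0.32, adjusted p = 0.0488), where the groups overlap. Controls held only 145 and 266 neutrophils, and without control replicate 1 none of the 6 calls in this class was kept while 1 was without control replicate 2. With the replicate number as a block, 11 genes were called instead of 6. Cluster 28, led by Retnlg and Mmp8, held 35.5% and 43% of macro-metastatic and 0.69% and 1.13% of control neutrophils. In cluster 27, which held most neutrophils of every library, Gapdh was 75.4 and 92.2 CPM in controls, 72.01 and 89.7 for the pre-metastatic pair and 761 and 770.0 for the macro-metastatic pair. Pkm there was 90.5 and 188 CPM in controls, 171 and 191 for the pre-metastatic pair and 514 and 604 for the macro-metastatic pair. For both genes the macro-metastatic libraries of this cluster were the highest. The part of the clusters in the 6 calls was not tested.

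Gapdh was also called in T cells, at 127 and 144 CPM in controls, 86.4 and 122 for the pre-metastatic pair and 893 and 939 for the macro-metastatic pair (log2 fold change 0.70, SE 0.19, adjusted p = 0.0249), and in Kupffer cells, at 110.4 and 143 CPM in controls, 64.8 and 82.3 for the pre-metastatic pair and 776 and 807 for the macro-metastatic pair (log2 fold change 0.80, SE 0.22, adjusted p = 0.0309). Of the 31-base words in the last 500 bases of Gapdh, 41.7% are shared with other annotated genes, so reads may have been split and the level is uncertain. The same holds for Eno1 (84.3%), Gpi1 (31.7%), Aldoa (23.2%) and Pgk1 (11.1%). Tpi1, triose phosphate isomerase, shares 2.55%. It was at 108 and 83.9 CPM in controls, 113 and 95.9 for the pre-metastatic pair and 140.5 and 159 for the macro-metastatic pair in Kupffer cells (log2 fold change 0.95, SE 0.21, adjusted p = 0.0106; -0.32 with T cells as reference). In endothelial cells it was at 51.6 and 39.2 CPM in controls, 57.5 and 45.5 for the pre-metastatic pair and 72.1 and 72.2 for the macro-metastatic pair (log2 fold change 1.01, SE 0.24, adjusted p = 0.0254; -0.29 with T cells as reference). T cells had 67.8 and 37.2 CPM in controls, 48.04 and 84.98 for the pre-metastatic pair and 100.4 and 132 for the macro-metastatic pair (log2 fold change 1.27, SE 0.27, adjusted p = 0.00435). In T-cell cluster 2 Tpi1 was 33.4 and 23.2 CPM in controls, 34.4 and 31.3 for the pre-metastatic pair and 12.1 and 42.8 for the macro-metastatic pair, with overlapping groups, and in cluster 5, led by Cd8a, it was 71.6 and 40.6 CPM in controls, 40.1 and 63.04 for the pre-metastatic pair and 127 and 118 for the macro-metastatic pair. Cluster 5 made up 14.3% and 4.42% of control and 34.8% and 32.7% of macro-metastatic T cells. Kupffer cells further had calls for Aldoa (log2 fold change 0.61, SE 0.18, adjusted p = 0.0472) and Pgam1 (log2 fold change 0.73, SE 0.18, adjusted p = 0.0163). For Pgam1 the change was 0.36 within Kupffer cells, which did not pass, and -0.33 within B cells.

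Gapdh was not called relative to B cells in the other 8 classes. NK cells had Gapdh at 79.2 and 111 CPM in controls, 57.7 and 51.6 for the pre-metastatic pair and 681 and 565 for the macro-metastatic pair. The values in conventional dendritic cells were 98.4 and 152 CPM in controls, 74.8 and 91.6 for the pre-metastatic pair and 839 and 788 for the macro-metastatic pair. Endothelial cells held 72.8 and 91.5 CPM in controls, 43.9 and 54.2 for the pre-metastatic pair and 480.1 and 534 for the macro-metastatic pair. Both macro-metastatic libraries were the highest in each of these. Hepatocytes had Gapdh at 206 and 399 CPM in controls, 127 and 167 for the pre-metastatic pair and 773 and 1005 for the macro-metastatic pair. The values in mast cells and basophils were 90.5 and 56.4 CPM in controls, 62.3 and 51.1 for the pre-metastatic pair and 479.8 and 387 for the macro-metastatic pair. Monocytes and macrophages held 125 and 187 CPM in controls, 103 and 114 for the pre-metastatic pair and 1293 and 1468 for the macro-metastatic pair. Both macro-metastatic libraries were the highest in each of these. Plasmacytoid dendritic cells had Gapdh at 101 and 68.1 CPM in controls, 44.1 and 77.7 for the pre-metastatic pair and 418 and 589 for the macro-metastatic pair. The values in plasma cells were 159.8 and 177 CPM in controls, 61.02 and 98.3 for the pre-metastatic pair and 784 and 635 for the macro-metastatic pair. In hepatocytes it did not pass within the class (log2 fold change 1.18, SE 0.42, adjusted p = 0.0879).

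Ldha was called relative to B cells in 4 classes. Mast cells and basophils had it at 279 and 189.8 CPM in controls, 405 and 214 for the pre-metastatic pair and 869 and 932 for the macro-metastatic pair (log2 fold change 2.02, SE 0.39, adjusted p = 0.00121), a call kept under every alternative that could be run. Pkm there was at 43.4 and 25.7 CPM in controls, 70.7 and 46.3 for the pre-metastatic pair and 261 and 262 for the macro-metastatic pair (log2 fold change 1.86, SE 0.47, adjusted p = 0.0124). Both rose while the endothelial marker sum of this class, given above, fell and its mast cell marker sum rose. The part of this in both calls was not tested. In Kupffer cells Ldha was at 182 and 169.8 CPM in controls, 226 and 209 for the pre-metastatic pair and 357 and 405 for the macro-metastatic pair (log2 fold change 0.88, SE 0.21, adjusted p = 0.0144) and in monocytes and macrophages at 205 and 159 CPM in controls, 248 and 302 for the pre-metastatic pair and 398 and 553 for the macro-metastatic pair (log2 fold change 1.07, SE 0.23, adjusted p = 0.0427). In the latter, cluster 36, led by Fn1 and Arg1, held 39.8% and 33.7% of macro-metastatic and 3.92% and 30.6% of control cells. There Ldha was 443 and 728 CPM and Hilpda 1695 and 1515 CPM in the macro-metastatic libraries, against 345 and 378 CPM and 855 and 601 CPM in cluster 22. The exporter Slc16a3 had 0 UMIs in control B cells, so its relative values are not interpreted. Within classes it rose in 6 of 7, for example in mast cells and basophils, where 2 UMIs in controls stood against 32 in macro-metastatic livers, a ratio of 12.4 (exact 95% counting interval 3.16 to 107, counting error only).

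Hepatocytes had 8 calls relative to B cells, from few cells. Ldha was at 441 and 567 CPM in controls, 1172 and 1404 for the pre-metastatic pair and 1121 and 2645 for the macro-metastatic pair, so both disease groups were above the controls (macro-metastatic log2 fold change 1.13, SE 0.36, adjusted p = 0.0298; pre-metastatic log2 fold change 1.42, SE 0.35, adjusted p = 0.0117). Without macro-metastatic replicate 2 the first of these was -0.27, and without control replicate 1 it was 0.27. Pkm, low in normal hepatocytes, which use another pyruvate kinase gene, was at 5.49 and 8.19 CPM in controls, 4.74 and 11.7 for the pre-metastatic pair and 116 and 81.9 for the macro-metastatic pair (log2 fold change 1.90, SE 0.50, adjusted p = 0.00461). Only 35 and 131 hepatocytes were captured from the macro-metastatic livers. Controls had 86.2% and 89.4% of theirs in cluster 15, whose leading genes include Alb, and the disease groups in clusters 30 and 14. Cluster 14, led by Saa1 and Hpx, has endothelial cells as its second-ranked marker list, and already in controls its Ndrg1 level was 295 and 183 CPM, against 4.98 and 3.86 CPM in cluster 15. In the hepatocyte class 10 Kupffer markers summed to 399 and 449 CPM in controls and 9356 and 2189 CPM in macro-metastatic livers, against 23136 and 25301 CPM in macro-metastatic Kupffer cells, and the part of this in the 8 calls was not tested. The hepatocyte marker list summed to 70649 and 52597 CPM in control and 26231 and 32790 CPM in macro-metastatic hepatocytes.

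RNA typical of neutrophils was higher in all 12 classes of macro-metastatic livers than of controls. The summed level of 12 neutrophil markers went from 24.98 and 21.97 to 1022 and 628 CPM in B cells, from 75.2 and 61.1 to 645 and 376 CPM in Kupffer cells, from 28.9 and 22.9 to 3189.5 and 2673 CPM in hepatocytes and from 83.3 and 277 to 3466 and 1215 CPM in mast cells and basophils. In neutrophils themselves it was 69630 and 75348 CPM in macro-metastatic livers. In these 4 classes none of the 12 markers was at 0 in macro-metastatic libraries. RNA typical of hepatocytes went the other way in B cells, the reference. There 12 hepatocyte markers summed to 1443 and 699.5 CPM in controls and 181 and 212 CPM in macro-metastatic livers. In T cells they fell from 1552 and 715 to 191 and 191 CPM, and in NK cells from 1687.5 and 831 to 302 and 347 CPM. Kupffer cells had 1325 and 1284 and then 1552.5 and 1213 CPM, with overlap. The part of such RNA, of either type, in the changes above was not tested.

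Plasmacytoid dendritic cells and plasma cells had 0 calls relative to B cells by edgeR and by DESeq2. By edgeR, 0.205% and 0.588% of all genes tested in them were called higher, in that order. At an unadjusted p under 0.05, 3 genes were higher and 1 lower in plasmacytoid dendritic cells and 1 was higher in plasma cells. Shares of all genes at that threshold, by DESeq2 or by the gate below are not given here. The smallest adjusted p in plasmacytoid dendritic cells belonged to Hilpda, at 13.01 and 5.52 CPM in controls, 25.02 and 64.4 for the pre-metastatic pair and 258 and 152 for the macro-metastatic pair (log2 fold change 2.21, SE 0.46, adjusted p = 0.0516), followed by Hk2, at 5.78 and 5.52 CPM in controls, 45.6 and 20.5 for the pre-metastatic pair and 21.5 and 63.7 for the macro-metastatic pair (log2 fold change 1.94, SE 0.79, adjusted p = 0.446). With cells gated one by one on their markers, 8 genes were called in this class instead of 0. In plasma cells it was Bnip3, with 1 UMI in controls and 9 in macro-metastatic libraries (ratio 6.84, exact 95% counting interval 0.948 to 299.9), and Aldoa, at 112 and 56.8 CPM in controls, 94.1 and 126 for the pre-metastatic pair and 164 and 212 for the macro-metastatic pair (log2 fold change 0.65, SE 0.34, adjusted p = 0.593).

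Few of these genes passed between pre-metastatic and control livers. Within classes 2 of 311 tests were higher and 0 lower, against 0.198% and 0.0576% of all genes tested, and relative to B cells 2 of 307 were higher and 0 lower, against 0.0799% and 0.0386%. The genes were Hk2 in T cells and Hilpda in Kupffer cells (log2 fold change 1.31, SE 0.16, adjusted p = 0.0214 within the class; log2 fold change 1.29, SE 0.21, adjusted p = 0.0374 relative to B cells), and Ldha in hepatocytes, given above. Hif1a in T cells did not pass (log2 fold change 0.65, SE 0.15, adjusted p = 0.123), with both pre-metastatic libraries above both controls. DESeq2 called 5 within classes and 0 relative to B cells, and its shares of all genes are not given here. Between macro-metastatic and pre-metastatic livers, 120 tests were higher and 3 lower within classes (8.78% and 4.61% of all genes tested), and 19 were higher and 2 lower relative to B cells (1.39% and 0.909%). This comparison shares its macro-metastatic libraries with the one against controls. The 2 falls relative to B cells were Adm in mast cells and basophils (log2 fold change -4.61, SE 1.19, adjusted p = 0.0130) and Tpi1 in hepatocytes (log2 fold change -1.42, SE 0.40, adjusted p = 0.0131). The endothelial marker sum of the mast cell class was 10301 and 15865 CPM in pre-metastatic and 716 and 640.3 CPM in macro-metastatic livers. Its part in the Adm fall was not tested.

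Cluster 38, led by Il1rl1, Rpl39l and Rhox5, was found almost only in macro-metastatic replicate 2, with 399 cells against 3 in replicate 1, so its levels have no replicate. Its best-ranked list was that of colon carcinoma cells, but the markers do not settle whether that name holds. The 11 tumour markers summed to 1646 CPM in it, less than the 2873 CPM in cholangiocytes and 2099 CPM in stellate cells of that library. The tumour list shares Krt8, Krt18, Krt19 and Cldn7 with the cholangiocyte list, so the comparison with cholangiocytes cannot decide the name. In cluster 38, 12 monocyte and macrophage markers summed to 3574 CPM. Gated one by one, 68 of its cells carried tumour markers foremost and 122 monocyte and macrophage ones. The 31 genes summed to 11663 CPM there, more than in any other class of that library. Gapdh was at 2589 CPM, Ldha at 1359, Pgk1 at 1306, Pgam1 at 1185, Tpi1 at 918, Pkm at 719.6 and Ndrg1 at 629 CPM. Hilpda was at 251 CPM and Hif1a at 86.4 CPM. Of the tumour markers, 3 were at 0 in it.

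Other genes of the same pathways were counted beside the share of all genes tested, 2.52% higher and 1.44% lower. Of 40 further HIF-pathway genes, 19 of 315 tests rose and 5 fell relative to B cells in macro-metastatic against control livers. Of 45 further genes of glucose handling, 9 of 317 rose and 2 fell, and of 8 pentose phosphate genes 3 of 87 rose and 0 fell; both shares of rises lie near that of all genes. Pim1, a survival kinase, was called in 5 classes, led by Kupffer cells (log2 fold change 1.93, SE 0.16, adjusted p = 2.03e-06) and hepatocytes (2.50, SE 0.36, adjusted p = 1.19e-09). T cells had Bhlhe40, a transcriptional repressor induced by hypoxia (1.74, SE 0.24, adjusted p = 2.31e-05), Mxi1, a Myc antagonist (1.79, SE 0.26, adjusted p = 6.13e-05), and the nuclear receptor Rora (1.58, SE 0.40, adjusted p = 0.0163). Gpd2, the mitochondrial glycerol phosphate dehydrogenase, rose in conventional dendritic cells (1.55, SE 0.21, adjusted p = 0.00488) and in monocytes and macrophages (1.46, SE 0.30, adjusted p = 0.0366). Ero1l, an oxidoreductase of the endoplasmic reticulum, rose in mast cells and basophils (3.01, SE 0.39, adjusted p = 1.8e-05), and G6pdx, which opens the pentose phosphate pathway, in neutrophils (1.81, SE 0.46, adjusted p = 0.0163). Falls included Epas1, the HIF-2 alpha subunit, in mast cells and basophils (-3.79, SE 0.66, adjusted p = 0.000438). Epas1 was at 871 and 835 CPM in control endothelial cells, and it moved with the endothelial marker sum of the mast cell class given above. Another fall was that of Bhlhe41 in endothelial cells (-2.88, SE 0.40, adjusted p = 0.000539).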

How the data were processed

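UMI counts per gene and barcode were used as the authors deposited them, unnormalized, for 6 libraries. Per the submitters' processing notes, CASAVA 1.8 and UMI-tools were used with build mm10; the aligner is not given in the sources used here. Barcodes with at least 500 UMIs and 300 genes and at most 25% mitochondrial UMIs were kept (66935), and predicted doublets were removed, which left 65092. Cells were clustered with scanpy 1.11.5 without the 31 genes or the pathway lists (39 clusters), and clusters were named by marker lists. Named clusters formed 16 classes, of which 12 had at least 20 cells in every library.

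UMIs were summed per library and class and tested with edgeR 4.0.16 (quasi-likelihood, TMM scaling), within a class over its 6 sums and relative to B cells over 12 sums (library, class and class by group terms), each with 3 residual degrees of freedom. P-values were adjusted by Benjamini-Hochberg over all genes of the class, and a call is an adjusted p under 0.05. Fold changes are on the TMM scale, while levels are unscaled. In 2 libraries against 2 an exact permutation test cannot go below 0.3333, so none was used. On simulated neutrophil sums, 4-fold rises were called in 82% and 2-fold rises in 16% of 50 genes each relative to B cells. Falls of the same sizes were called in 70% and 2%, so falls were called less often than rises. The simulation used a single fixed spread for all genes, which need not match the data.

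The genes and lists were chosen with earlier results of these data known. Values per library are given for genes called relative to B cells, for the 2 smallest adjusted p in classes with no call, and for Gapdh, Hif1a and Slc2a1; up to 5 called genes per class were planned and the others are named as well. Of the pathway lists, genes are named from the 3 smallest adjusted p per class. Alternatives were DESeq2 1.42.0, other scaling, no filter on low counts, a gate on each barcode's markers, doublets kept, T cells as reference, a GC and length correction, a replicate block and each library left out. One more, Kupffer cells without cluster 13, was chosen after seeing the data. Stellate cells, cholangiocytes, erythroid cells and cluster 38 had too few cells to test.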

Additional observations from a re-analysis of the deposited data

Results flagged for a closer look

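A change between groups that differed from the change in B cells was found 44 times for macro-metastatic and 2 times for pre-metastatic against control livers, by the test of that difference (edgeR's quasi-likelihood test, adjusted p under 0.05). The values that follow are log2 differences, macro-metastatic minus control, after the B-cell change is subtracted. In NK cells they were Hif1a 1.60, Hilpda 1.24, and in T cells Hif1a 1.10, Ndrg1 1.55, Tpi1 1.27, Hilpda 1.00, Hk2 2.10, Gapdh 0.70. Conventional dendritic cells had Hilpda 2.20, Pfkp 1.24, Ndrg1 1.28. Endothelial cells had Ankrd37 3.85, Bnip3 2.61, Hk2 1.95, Tpi1 1.01. Hepatocytes had Hilpda 2.35, Ndrg1 2.37, Hk2 3.37, Pfkp 3.26, Pkm 1.90, Pfkfb3 1.99, Hif1a 1.32, Ldha 1.13. Kupffer cells had Hilpda 1.49, Tpi1 0.95, Pfkfb3 1.23, Ldha 0.88, Pgam1 0.73, Ankrd37 2.43, Gapdh 0.80, Aldoa 0.61. Mast cells and basophils had Hilpda 3.03, Ldha 2.02, Pkm 1.86, Pfkp 1.49. Monocytes and macrophages had Hilpda 2.26, Ndrg1 1.54, Ldha 1.07, and neutrophils Hif1a 2.02, Gapdh 1.58, Aldoa 1.31, Pkm 1.38, Eno1 1.88, Pgam1 1.09. For pre-metastatic minus control livers the values were Hilpda 1.29 in Kupffer cells and Ldha 1.42 in hepatocytes.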

How the results depend on the processing

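Counts of called genes below are for macro-metastatic against control livers unless named otherwise. Shares of all genes under the alternatives are not given here, so the counts are not set against other genes. Of the 44 calls relative to B cells, 5 held under every alternative that could be run for them (Hilpda in conventional dendritic cells and in mast cells and basophils, Ankrd37 in endothelial cells, Ldha in mast cells and basophils, Hif1a in T cells), and 36 were lost without at least 1 control library. Leaving out 1 library at a time gave 14 to 54 calls relative to B cells: NK 0 to 4, T 1 to 6, conventional dendritic 1 to 4, endothelial 2 to 9, hepatocyte 1 to 9, Kupffer 3 to 11, monocyte and macrophage 0 to 9, neutrophil 0 to 9 and plasmacytoid dendritic 0 to 1. Within classes it gave 86 to 143: conventional dendritic 5 to 12, endothelial 7 to 19, Kupffer 13 to 20, mast 7 to 16, monocyte and macrophage 0 to 14, neutrophil 7 to 14, plasmacytoid dendritic 1 to 6 and plasma 1 to 5. Pre-metastatic counts ranged from 0 to 2 relative to B cells and 0 to 3 within classes. DESeq2 called 19 relative to B cells (NK 0, T 1, endothelial 2, hepatocyte 3, Kupffer 2), and within classes 13 in monocytes and macrophages and 3 in plasma cells; its pre-metastatic counts were 5 within classes and 0 relative to B cells. The GC and length correction gave 3 within plasmacytoid dendritic and 2 within plasma cells. With T cells as reference, NK had 0, endothelial 2, Kupffer 5, neutrophil 2 and plasmacytoid dendritic cells 2, and 1 pre-metastatic call remained in number. There Ndrg1 in conventional dendritic cells was -0.28, Hk2 and Tpi1 in endothelial cells -0.20 and -0.29, and Tpi1 in Kupffer cells -0.32. In hepatocytes, Ldha, Hif1a and Ndrg1 were -0.27, -0.64 and -0.12 without macro-metastatic replicate 2 and 1.56, 1.53 and 2.71 without replicate 1. Without TMM factors, conventional dendritic cells had 1, neutrophils 2 and plasmacytoid dendritic cells 1. A minimum of 50 cells left 7 classes. With no filter on low counts, the within-class counts were 15 in hepatocytes and 14 in monocytes and macrophages, those relative to B cells were 7 in conventional dendritic, 9 in endothelial, 8 in monocyte and macrophage and 1 in plasmacytoid dendritic cells, and the pre-metastatic ones 17 within and 4 relative to B cells. The per-barcode gate gave NK 1 and plasmacytoid dendritic 8 relative to B cells, 13 within plasmacytoid dendritic cells, and pre-metastatic 0 within and 1 relative to B cells; mast cells could not be fitted there. Keeping doublets gave 1 pre-metastatic call relative to B cells, the separate scaling factors 1 in plasmacytoid dendritic cells, and Kupffer cells without cluster 13 had 5. Correlations of same-numbered deviations ran from -0.344 to 0.537 over classes, and all were over 0.1 in neutrophils alone (0.282, 0.339 and 0.537). The labels do not say that equal numbers belong together, and this does not establish a pairing. Neutrophil cluster 25, led by Ngp and Camp, held 21.4% and 15.4% of control, 12.3% and 6.87% of pre-metastatic and 13.4% and 4.90% of macro-metastatic neutrophils. With the replicate block, 11 were called in neutrophils and 5 in monocytes and macrophages relative to B cells. The causes were not tested. Few cells limit NK, plasmacytoid dendritic, plasma, mast and macro-metastatic hepatocyte values.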
